A study of Arabidopsis thaliana with 9 samples.

Results

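The chloroplast genome of Arabidopsis thaliana, the thale cress, was followed through 9 RNA sequencing libraries of laser-dissected shoot apical meristems. Its loci were taken as every row of the deposited read count table whose identifier starts with ATCG, which gave 85 of the 23338 loci in the table. The 61 loci whose identifiers start with ATMG, those of the mitochondrial genome, served as the comparison. All plants were of strain Col-0. Short days held 8 hours of light and 16 hours of darkness, and long days held 16 hours of light and 8 hours of darkness. The group LD0 (n = 3) was taken before induction, LD1 (n = 3) after 1 long day and LD3 (n = 3) after 3 long days, so the series starts with vegetative meristems and ends with meristems in transition that have not yet formed floral meristems. Each group held a library A and a library B made as whole-transcriptome shotgun libraries and a library C made as a ready-to-run library. The RNA was amplified and copied into cDNA with random primers. The labels give no plant numbers and do not say that the letters mark separate harvests, so p-values reflect only how much the libraries differed from each other, part of which may be technical.

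Plastids keep a small circular genome of their own, inherited from a cyanobacterial ancestor. It encodes ribosomal and transfer RNAs, part of the plastid ribosome, subunits of a bacterial-type RNA polymerase, and core subunits of the photosystems, the cytochrome b6f complex, the ATP synthase and the NDH complex. Nuclear genes supply a phage-type RNA polymerase, the sigma factors that guide the plastid's own polymerase to promoters, and proteins that attach to it. Cells of the shoot apical meristem hold small, immature plastids, which become chloroplasts as cells leave the meristem for leaf primordia.

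The description field of the authors' deposited comparison tables was empty for all 85 plastid loci. The RefSeq annotation of TAIR10.1 lists 129 genes on the plastid sequence, of which 85 are protein-coding, 37 are tRNA genes and 7 are rRNA genes, but it uses other identifiers, and 0 of the 85 loci matched it. Only 5 of the 85 loci could be given a name, through notes on similar nuclear genes. The loci could therefore not be split into rRNA, photosystem, ATP synthase, ribosomal and polymerase genes, and the others are called by their identifiers, with no function given. Because no class could be formed, the 3 loci with the most reads in all are named here. Also named are the 2 with the smallest p when all time points were tested jointly, and those 5 with a note. ATCG00800, also among the 5 smallest of these p, is named only where it separated LD3 from LD0.

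The libraries differed widely in depth, from 97153 to 11145220 reads assigned to loci. The number of loci with reads did not always follow the depth. Library C of LD1 had reads on 9909 loci from 714559 reads, and library B of LD1 on 15315 from 711363. Library C of LD3, the deepest, had reads on 15587 loci, and library B of LD3 on 17340 from 1298372 reads. The read totals of the plastid loci were 220, 134 and 1075 in libraries A, B and C of LD0. They were 163, 989 and 2217 in those of LD1, and 101, 951 and 3122 in those of LD3, or 8972 in all. Library C of LD1 stood apart from the others: 0.970% of its reads lay on the 2 nuclear loci described as rRNA, and it had the highest plastid and mitochondrial shares. On those rRNA loci lay 0.0267% to 0.250% of the reads in LD0, 0.00562% and 0.0217% in the other 2 libraries of LD1, and 0.00294% to 0.00672% in LD3, so LD3 lay below LD0 without overlap. With these rRNA reads taken out of the totals, the difference in plastid share between LD3 and LD1, given below, was -0.128 percentage points. Several results that rest on library C of LD1 are also given without it. The authors' deposited comparisons and the counts by mean level for LD1 against LD0 have no such version.

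Plastid loci held a small part of the reads in every library. In LD0 the plastid share of all assigned reads was 0.202% in library A (exact 95% binomial interval 0.176% to 0.231%), 0.138% in library B (0.116% to 0.163%) and 0.0491% in library C (0.0463% to 0.0522%). In LD1 it was 0.131% in library A (0.112% to 0.153%), 0.139% in library B (0.131% to 0.148%) and 0.310% in library C (0.297% to 0.323%). In LD3 it was 0.0990% in library A (0.0806% to 0.120%), 0.0732% in library B (0.0687% to 0.0781%) and 0.0280% in library C (0.0270% to 0.0290%). All 3 libraries of LD3 lay below all 3 of LD1, whereas LD3 overlapped LD0 and LD1 overlapped LD0. The intervals cover counting error only, and the spread between libraries of a group was far wider than they are.

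**Figure D1:**
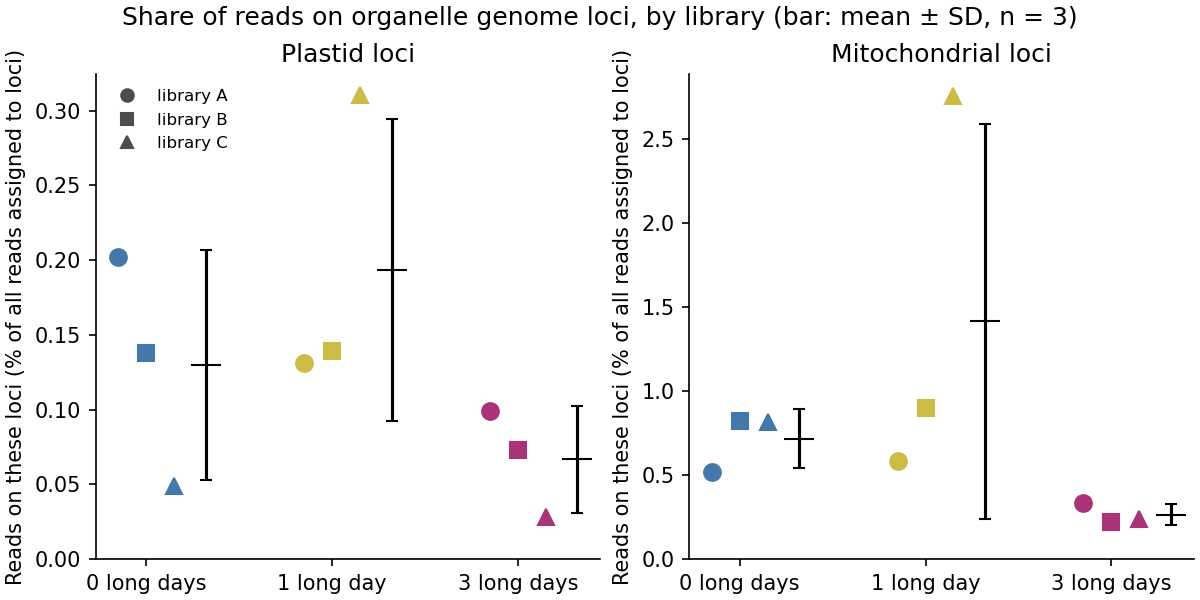
Share of reads on plastid loci (left) and mitochondrial loci (right), in percent of all reads assigned to loci, by number of long days. Each point is a library and the bar gives the mean ± SD (n = 3); the 3 points of 3 long days lie below the 3 points of 1 long day in both panels, and library C of 1 long day is the highest point in both.

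The mean plastid share was 0.130% ± 0.0769 in LD0, 0.193% ± 0.101 in LD1 and 0.0668% ± 0.0359 in LD3 (SD, n = 3 each). Between LD3 and LD1 the difference was -0.127 percentage points, with LD3 at 0.345 of the LD1 mean and lower under each of the 3 letters, and the exact two-sided permutation test gave p = 0.1 (Benjamini-Hochberg adjusted p = 0.2 over 6 tests of organelle shares). A p of 0.1 is the smallest that 3 libraries against 3 can give. Between LD3 and LD0 the difference was -0.0630 percentage points, lower under 3 of 3 letters (exact permutation p = 0.3, adjusted p = 0.45). Between LD1 and LD0 it was 0.0637 percentage points, higher under 2 of 3 letters (exact permutation p = 0.5, adjusted p = 0.5). None of the 3 differences passed a threshold of 0.05. Without library C of LD1, the difference between LD3 and LD1 was -0.0683 percentage points and that between LD1 and LD0 was 0.00526. With the shotgun libraries A and B only, LD1 was lower than LD0 by a difference of -0.0351 percentage points. In dissected tissue, fewer cells of a type and less RNA per cell cannot be told apart, and this holds for every level given here.

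The mitochondrial loci, the other organelle genome, took a larger share of the reads. Their share was 0.518%, 0.821% and 0.814% in libraries A, B and C of LD0. It was 0.587%, 0.899% and 2.76% in those of LD1, and 0.334%, 0.218% and 0.237% in those of LD3. LD3 lay below both other groups without overlap. The difference was -1.15 percentage points against LD1 and -0.455 against LD0 (exact permutation p = 0.1 for each, adjusted p = 0.2), and that of LD1 against LD0 was 0.697 (exact permutation p = 0.4, adjusted p = 0.48). For every 100 mitochondrial reads there were 20.6 ± 16.9 plastid reads in LD0, 16.3 ± 5.59 in LD1 and 25 ± 11.6 in LD3 (SD, n = 3 each), so the ratio of the organelles overlapped between all groups. Without library C of LD1, the mitochondrial difference was -0.480 percentage points for LD3 against LD1 and 0.0251 for LD1 against LD0.

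Marker genes of other cell types varied between the libraries too. The 13 nuclear markers of leaf mesophyll, such as LHCB1.1, a light-harvesting chlorophyll-binding protein, and RBCS1A, the small subunit of Rubisco, took 0.0535% to 0.168% of reads in LD0, 0.0464% to 0.249% in LD1 and 0.0341% to 0.135% in LD3. Of the 12 that could be tested, 9 had a lower fitted level in LD1 than in LD0, 10 in LD3 than in LD0 and 9 in LD3 than in LD1, beside 51.8%, 47.1% and 47.1% of all genes, and 0 passed the test in any pair (edgeR's quasi-likelihood test with Benjamini-Hochberg adjustment). Their median log2 fold changes were -1.08, -0.97 and -0.75. The median share of the 13 was 0.0745% in LD0, 0.130% in LD1 and 0.0918% in LD3. Against LD0 it was thus higher in LD1 and in LD3, opposite to most of the fitted levels. Library C of LD0 held 3668 mesophyll reads, and libraries A and B of LD0 held 81 and 52. In LD3, library C had the lowest mesophyll share and the lowest plastid share. In LD0, library C had the highest mesophyll share and the lowest plastid share, and in LD1 the same held for library A. The 7 meristem markers took 0.0561% to 0.0741% in LD0, 0.0399% to 0.0965% in LD1 and 0.0516% to 0.0773% in LD3. Among them CLV3, the peptide signal of the stem cells, and STM, the homeobox gene of the meristem, had reads in every library, while WUS, the homeobox gene of the organizing centre, was at 0 in 4 of 9 libraries. The 5 vasculature markers reached at most 0.0531%, in library B of LD1, and were all at 0 in library A of LD1 and library A of LD3. The 8 seed storage markers took 1.04% to 2.89% of reads in LD0, 0.0819% to 1.04% in LD1 and 0.0323% to 0.213% in LD3. The part of any of these cell types in the plastid differences was not tested.

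The plastid reads were unevenly spread over the 85 loci. The 3 loci with the most reads held 31.9% of them, the first 10 held 61.3% and the first 20 held 80.3%. A locus had a median of 33 reads over all libraries, 26 loci had fewer than 10 reads in all and 20 loci had 100 or more. Reads were found in all 9 libraries for 7 loci and in a single library for 13. These are read totals that are not divided by gene length, so their order is not an order of transcript level, and library C of LD3 alone gave 3122 of the 8972 reads.

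The number of plastid loci with at least 1 read also varied. It was 30, 37 and 68 in libraries A, B and C of LD0, 33, 47 and 57 in those of LD1, and 27, 50 and 43 in those of LD3. When each library was brought to 101 plastid reads by calculation, the count of the shallowest, the expected number was 21.8, 32.4 and 32.8 loci for the LD0 libraries, 27.7, 23.6 and 35.3 for those of LD1, and 27, 23.0 and 17 for those of LD3. The groups overlapped. Library C of LD3 had the fewest expected loci although it was the most deeply sequenced library.

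The leading locus also differed from library to library, with 6 different loci ranking highest among the 9 libraries. It held 25.5%, 10.4% and 17.7% of the plastid reads in libraries A, B and C of LD0, 12.9%, 26.1% and 9.92% in those of LD1, and 28.7%, 21.3% and 23.2% in those of LD3. The 5 leading loci of each library held 43.3% to 69.1% in LD0, 32.8% to 57.5% in LD1 and 60.0% to 74.0% in LD3. On this measure LD3 lay above LD1 without overlap and overlapped LD0.

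**Figure D2:**
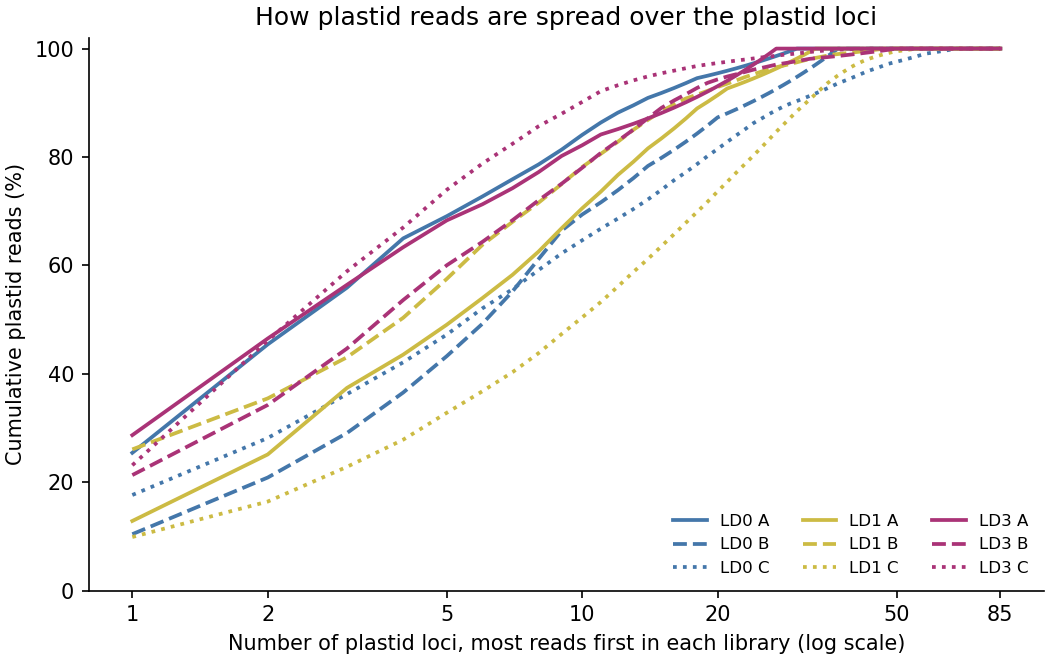
Cumulative plastid reads, in percent of the plastid reads of a library, against the number of plastid loci counted from the one with the most reads (log scale). Each line is 1 of the 9 libraries; the 5 leading loci hold 32.8% in library C of LD1, the flattest line at that point, and 74.0% in library C of LD3, the steepest.

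The locus with the most reads was ATCG00740, with 999 reads in all and reads in every library. Levels of single loci are given in RPM, the reads of a locus for every 1000000 reads of its library that were assigned to loci. Its level was 405, 144 and 39.8 RPM in libraries A, B and C of LD0, 161, 131 and 154 in those of LD1, and 284, 156 and 35.8 in those of LD3. The means were 196 ± 188, 148 ± 15.8 and 159 ± 124 RPM (SD, n = 3 each). Libraries A and B were above library C in LD0 and LD3, and the 3 groups overlapped. When the 9 libraries were weighted equally it had the highest mean share of the plastid reads, at 14.2%. In that ranking ATCG00440 came next at 8.32%, then ATCG00010 at 8.23%, and ATCG00470 was at rank 6 with 4.70%. In edgeR's fit its log2 fold change was 0.31 (SE 0.87) for LD1 against LD0, -0.48 (SE 0.81) for LD3 against LD0 and -0.79 (SE 0.86) for LD3 against LD1, with adjusted p of 0.970, 0.934 and 0.973. The fit has a term for the library preparation and weights libraries by depth, and its signs for LD1 against LD0 and for LD3 against LD1 are opposite to those of the group means. Each of these differences turned its sign when 1 or more single libraries were left out.

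Locus ATCG00010 had 983 reads, of which 718 came from library C of LD3. In the order A, B, C, the LD0 libraries stood at 82.8, 82.3 and 7.32 RPM, those of LD1 at 169, 101 and 95.2, and those of LD3 at 98.0, 47.0 and 64.4. All 3 libraries of LD1 were above all 3 of LD0, whose libraries A and B held only 9 and 8 reads, and LD3 overlapped both. The log2 fold change was 1.52 (SE 0.93, adjusted p = 0.811) for LD1 against LD0 and -1.01 (SE 0.86, adjusted p = 0.973) for LD3 against LD1 by edgeR's quasi-likelihood test.

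Locus ATCG00470 had 881 reads, of which 723 came from library C of LD3, where it was the leading plastid locus with 23.2% of the plastid reads. Libraries A, B and C of LD0 stood at 18.4, 20.6 and 17.4 RPM, those of LD1 at 64.3, 25.3 and 68.6, and those of LD3 at 0, 31.6 and 64.9. The values of LD1 again lay above those of LD0, and LD3 overlapped both. Libraries A and B of LD0 held only 2 reads each, where a count of 3 reads would make 27.6 and 30.9 RPM, against 25.3 RPM in library B of LD1, so the depth does not show that separation. The value of 0 in library A of LD3 came from a library of 102019 reads, where a count of 0 allows up to 29.4 RPM (3 reads of the total). Its log2 fold change was 1.54 (SE 1.17, adjusted p = 0.836) for LD1 against LD0 and -0.92 (SE 1.06, adjusted p = 0.973) for LD3 against LD1 by edgeR's quasi-likelihood test.

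The 2 loci with the smallest p when the time points were tested jointly both had their lowest mean in LD3. Locus ATCG00280 had 0, 11 and 38 reads in libraries A, B and C of LD0, 7, 2 and 24 in those of LD1, and 0, 1 and 1 in those of LD3. In RPM this made 0, 113 and 17.4 for the LD0 libraries, 56.3, 2.81 and 33.6 for those of LD1, and 0, 0.770 and 0.0897 for those of LD3. The 3 libraries of LD3 lay below those of LD1 in these values, and library A of LD0 was at 0 as well. A count of 0 allows up to 29.4 RPM in library A of LD3 and 27.6 RPM in library A of LD0, and library B of LD1 stood at only 2.81 RPM, so the depth does not show a separation of LD3 from LD1 in every library. The log2 fold change was -6.76 (SE 2.01, adjusted p = 0.560) for LD3 against LD0 and -6.55 (SE 2.02, adjusted p = 0.973) for LD3 against LD1, and the joint adjusted p was 0.824 by edgeR's quasi-likelihood test. DESeq2, run with the same terms, gave it an adjusted p of 0.00888 for LD3 against LD0, the lowest over the 16 alternatives that could test it, which ran up to 0.9501.

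Locus ATCG00440 had 23, 14 and 52 reads in libraries A, B and C of LD0, 4, 258 and 220 in those of LD1, and 0, 99 and 9 in those of LD3. In RPM this made 211, 144 and 23.8 for the LD0 libraries, 32.2, 363 and 308 for those of LD1, and 0, 76.2 and 0.808 for those of LD3. Library B of LD3 lay above library A of LD1 and library C of LD0, so LD3 overlapped both groups. It was the leading plastid locus in libraries B and C of LD1. The log2 fold change was 2.101 (SE 1.56, adjusted p = 0.835) for LD1 against LD0, -2.43 (SE 1.44, adjusted p = 0.740) for LD3 against LD0 and -4.53 (SE 1.71, adjusted p = 0.973) for LD3 against LD1 by edgeR's quasi-likelihood test. When 1 library was left out, the value for LD3 against LD1 ran from -2.82 (without library C of LD1) to -8.25 (without library B of LD3), and that for LD3 against LD0 from -1.68 (without library C of LD3) to -6.79 (without library B of LD3). With no filter on low counts, its adjusted p for LD3 against LD1 was 0.0124, the lowest over 19 alternatives, which ran up to 1.

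Of the 5 loci with a RefSeq note, only ATCG00670 had enough reads to be tested. The note names it the plastid-encoded ClpP, the proteolytic subunit of the Clp protease, which degrades proteins in the plastid stroma. It had 6, 1 and 0 reads in libraries A, B and C of LD0, 0, 75 and 23 in those of LD1, and 0, 9 and 101 in those of LD3. In RPM this made 55.2, 10.3 and 0 for the LD0 libraries, 0, 105 and 32.2 for those of LD1, and 0, 6.93 and 9.06 for those of LD3. Every group held a library at 0, and the groups overlapped. The 0 in library C of LD0 came from 2187205 reads and allows up to 1.37 RPM, against the 32.2 of library C of LD1. The log2 fold change was 1.89 (SE 1.89, adjusted p = 0.890) for LD1 against LD0 and -2.89 (SE 1.81, adjusted p = 0.973) for LD3 against LD1 by edgeR's quasi-likelihood test.

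The other 4 loci with a note were thinly covered. ATCG00430, noted as photosystem II reaction center protein G, had 58 reads in all. Libraries A, B and C of LD0 stood at 64.4, 0 and 1.83 RPM, those of LD1 at 0, 0 and 58.8, and those of LD3 at 0, 0.770 and 0.359. A single library therefore carried most of the reads in both LD0 and LD1. The note belongs to a nuclear gene for a mitochondrial NADH-ubiquinone oxidoreductase subunit whose best plastid match is this locus. The name in the note and this match point to different complexes, so ATCG00430 is not taken here as a photosystem gene. ATCG00530, noted as a CemA-like proton extrusion protein, had 6 reads, in library B of LD0, library C of LD1 and library A of LD3. ATCG00660, noted as ribosomal protein L20, had 4 reads, all in library B of LD3, and ATCG00750, noted as ribosomal protein S11, had 1 read, in library A of LD1. None of these 4 passed the filter on low counts, so they were not tested here. In the authors' deposited tables ATCG00430 had a log2 fold change of -5.73 (unadjusted p = 0.00733) for LD3 against LD1 and -5.04 (unadjusted p = 0.0288) for LD3 against LD0, and neither passed after adjustment over all rows.

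**Figure D3:**
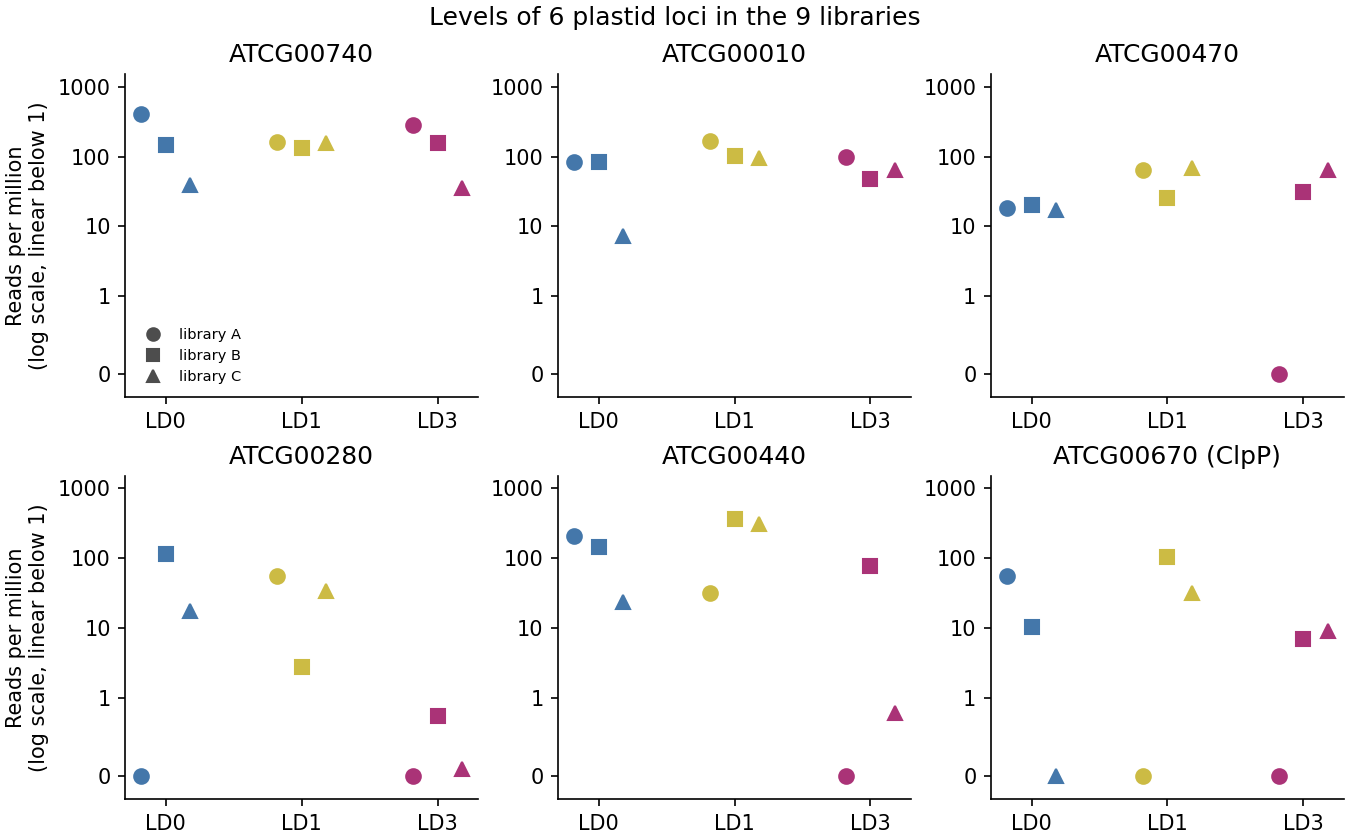
Level of 6 plastid loci in RPM (log scale, linear below 1), by time point. Each point is a library; ATCG00280 lies at or below 0.770 in all 3 libraries of LD3, and ATCG00670 has a library at 0 in every group.

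A test across all genes asked which loci differed between time points. Of the 85 plastid loci, 19 passed the filter on low counts and were tested among 9300 genes with edgeR's quasi-likelihood test. After Benjamini-Hochberg adjustment, 0 plastid loci were called for LD1 against LD0, LD3 against LD0 or LD3 against LD1, beside 0% of all tested genes in each, and 0 were called in the joint test, beside 0.0108%. At an unadjusted p under 0.05, 1 plastid locus was higher in LD1 than in LD0, beside 3.28% of all genes, and 0 were lower, beside 3.09% (6.37% in either direction). On the same rule 2 were lower in LD3 than in LD0, beside 5.24%, and 0 were higher, beside 2.69% (7.92% in either direction). Between LD3 and LD1, 5 were lower in LD3, beside 2.51%, and 0 were higher, beside 1.57% (4.08% in either direction). As shares of the 19 these 3 counts made 5.26%, 10.5% and 26.3%. The last of them rests on library C of LD1 and on library C of LD3. Without library C of LD1, 1 of 19 tested plastid loci had an unadjusted p under 0.05 for LD3 against LD1, beside 5.17% of all genes. Without library C of LD3 it was 1 of 24, beside 1.97%. With libraries A and B only it was 0 of 6, beside 4.21%. In the joint test 1 of the 19 had an unadjusted p under 0.05, beside 5.74%. A locus can pass the filter through the libraries in which it is high, so the 19 do not stand for the 85. DESeq2 called 1 of the 17 plastid loci to which it gave an adjusted p for LD3 against LD0, or 5.88%, beside 3.55% of all genes. It called 0 of 17 for LD1 against LD0, beside 0.389%, 0 of 5 for LD3 against LD1, beside 0.32%, and 0 of 15 in the joint test, beside 0.546%.

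The direction of the fitted changes can be set beside all genes. For LD3 against LD1, 18 of the 19 tested loci had a lower fitted level and 1 a higher, from -6.55 to 0.50 on the log2 scale. Their median log2 fold change was -2.12, beside 0.08 for all genes. For LD3 against LD0, 14 were lower and 5 higher, with a median of -1.06 beside 0.09. For LD1 against LD0, 5 were lower and 14 higher, with a median of 1.21 beside -0.06. Of the 12 mitochondrial loci tested in the same fit, 12 were lower in LD3 than in LD1, with a median of -2.29. Against LD0, 12 were lower in LD3 as well, with a median of -2.73, and 4 were lower in LD1, with a median of 0.19. A lower fitted level in LD3 was thus not particular to the plastid loci. The 3 comparisons share their libraries in pairs and are not independent of each other. Without library C of LD1, 13 of 19 tested plastid loci were lower in LD3 than in LD1, with a median of -0.87. For LD1 against LD0, 10 were then lower and 9 higher, with a median of -0.10.

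**Figure D4:**
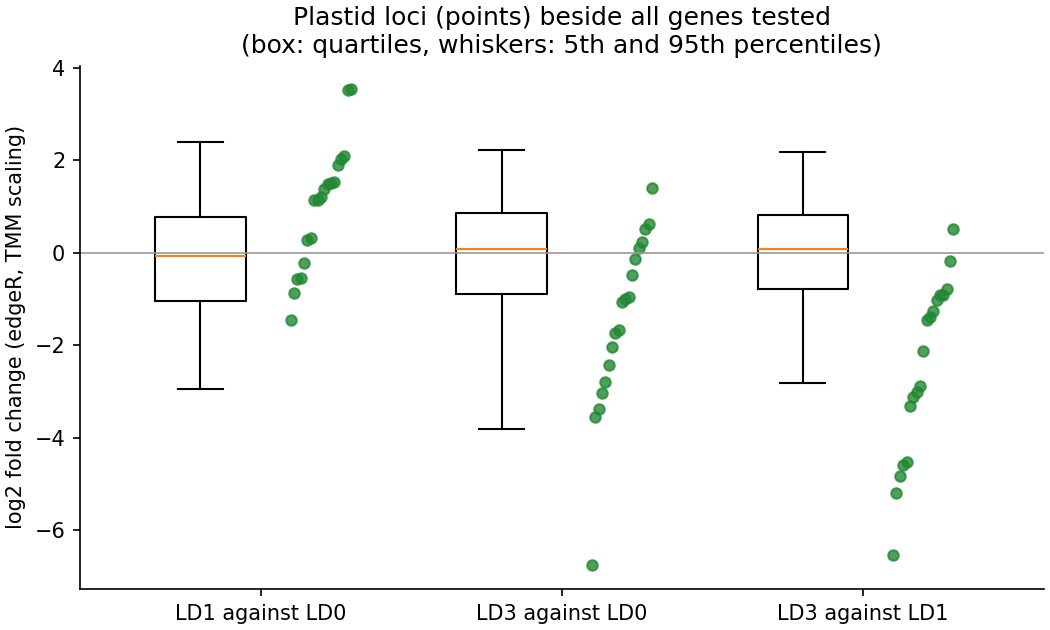
Log2 fold change of each of the 19 tested plastid loci (points, sorted) beside all 9300 tested genes (box with quartiles and whiskers at the 5th and 95th percentiles) for the 3 pairs of time points. For LD3 against LD1 the points run from -6.55 to 0.50 with 18 of 19 below 0.

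Every plastid locus can be placed by its mean level, with no filter. Between LD3 and LD1, 61 of the 85 loci had a lower mean in LD3, or 71.8%, beside 37.6% of all loci, and 17 had a higher one, beside 52.8%. Without library C of LD1, 47 were lower, beside 36.3% of all loci, and 27 higher, beside 52.7%. Between LD3 and LD0, 57 were lower and 24 higher, beside 46.4% of all loci lower and 49.1% higher. Between LD1 and LD0, 53 were higher and 29 lower, beside 40.6% of all loci higher and 51.6% lower. The same counts can be made within each letter, over the loci with reads in either library. Between LD3 and LD1, 56 plastid loci were lower and 8 higher in libraries C, or 87.5% lower beside 29.2% of all loci. In libraries B 36 were lower and 28 higher, or 56.3% lower beside 37.7%, and in libraries A 23 were lower and 22 higher, or 51.1% beside 44.5%. Between LD3 and LD0, 60 were lower and 12 higher in libraries C, or 83.3% beside 52.3%. In libraries B it was 32 and 29, or 52.5% beside 35.4%, and in libraries A 22 and 21, or 51.2% beside 43.1%. Between LD1 and LD0, 21 were lower and 54 higher in libraries C, or 28.0% lower beside 70.2% of all loci. In libraries B 28 were lower and 31 higher, or 47.5% beside 43.4%, and in libraries A 24 and 24, or 50% beside 51.2%. The share of plastid loci that were lower in LD3 thus exceeded that of all loci under every letter, by the most in libraries C. Many loci had 0 or few reads in the shotgun libraries, and the depth of a library limits what its counts can show.

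Few loci separated the groups without overlap. Among the 19 tested loci, 2 were higher in all libraries of LD1 than in all of LD0, or 10.5%, beside 3.48% of all genes. They were ATCG00010 and ATCG00470, with the few reads in LD0 given above. None of the 19 was lower in all libraries of LD1 (0, beside 4.83%). A single locus, ATCG00800, was lower in all libraries of LD3 than in all of LD0, or 5.26%, beside 4.53%. It stood at 18.4, 10.3 and 86.9 RPM in libraries A, B and C of LD0, from 2, 1 and 190 reads. In those of LD3 it stood at 0, 4.62 and 5.56. The 0 in library A of LD3 allows up to 29.4 RPM, above libraries A and B of LD0, so the depth does not show that separation. A single locus, ATCG00280, was lower in all libraries of LD3 than in all of LD1, beside 1.13%, within the limit of the count of 0 in library A of LD3 given above. In the opposite direction, 0 of the 19 were higher in all libraries of LD3 than in all of LD0, beside 9.94%, or than in all of LD1, beside 9.91%.

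The preparation of the library was a term of the same fit. For library C against libraries A and B, 78 of 9300 genes were called, or 0.839%, and 0 of them were plastid loci. Of the 19 tested plastid loci, 13 were lower in libraries C and 6 higher, with a median log2 difference of -0.93 beside 0.05 for all genes. At an unadjusted p under 0.05 by edgeR's quasi-likelihood test, 2 of the 19 were lower, or 10.5%, beside 7% of all genes. On the same rule 0 were higher, beside 10.9%. With no filter on low counts, 43 of the 85 loci were lower and 42 higher, with a median of -0.04 beside -0.23 for all genes.

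In the authors' deposited tables, which give an unadjusted p, 12 of 82 listed plastid loci had a p under 0.05 for LD1 against LD0, 11 of them higher, or 14.6% beside 6.78% of all rows. For LD3 against LD0 the authors' deposited tables hold 6 of 81, all lower, or 7.41% beside 7.51%. For LD3 against LD1 the authors' deposited tables hold 25 of 78, all lower, or 32.1% beside 8.7%. The median log2 fold change of the plastid loci in the authors' deposited tables was 1.38, -2.12 and -3.42 for these pairs, beside -0.31, -0.03 and 0.28 over all rows. After Benjamini-Hochberg adjustment of the authors' deposited p-values, 0 plastid loci were under 0.05 in any pair. How far these values rest on library C of LD1 was not tested.

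The nuclear genes of plastid transcription were followed as a list of polymerases, sigma factors and polymerase-bound proteins. Of 20 such genes, 11 were tested and 0 were called in any pair by edgeR's quasi-likelihood test. Of these 11, 3 were higher and 8 lower in LD1 than in LD0, beside 51.8% of all genes lower. In LD3, 5 were higher and 6 lower than in LD0, and 5 higher and 6 lower than in LD1, beside 47.1% of all genes lower in each. The median log2 fold changes of the 11 were -0.37, -0.04 and -0.08 for these pairs, beside -0.06, 0.09 and 0.08 for all genes. Together the 20 took 0.0246% to 0.0487% of reads in LD0, 0.0137% to 0.0330% in LD1 and 0.0256% to 0.0328% in LD3. Among the sigma factors, which guide the plastid's bacterial-type polymerase to promoters, SIG1 had 3, 2 and 35 reads in libraries A, B and C of LD0, 8, 2 and 1 in those of LD1, and 1, 8 and 111 in those of LD3. The phage-type polymerase gene RPOTp had 1, 0 and 27 reads in the LD0 libraries, 0, 8 and 0 in those of LD1, and 0, 6 and 5 in those of LD3. FLN1, a fructokinase-like protein bound to the plastid-encoded polymerase, had 0, 0 and 1 reads in the LD0 libraries, 2, 6 and 2 in those of LD1, and 2, 2 and 218 in those of LD3. Its log2 fold change was 4.39 (SE 1.96, adjusted p = 0.772) for LD1 against LD0 and 4.72 (SE 1.87, adjusted p = 0.577) for LD3 against LD0, and both rest on a single read in LD0. It was chosen for mention after its values were seen, as were SIG1 and RPOTp.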

How the data were processed

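The authors deposited raw counts of reads per locus in 16 columns, where 7 libraries have a column for each read of a pair and 2 libraries have 1 column. Per the file headers, 7 of the columns came from BLASTN 2.2.21 and 9 from BLASTN 2.2.13. Version 2.2.21 served libraries A and C of LD0, library C of LD1, library A of LD3 and the read 1 column of library C of LD3. The libraries with 1 column were library A of LD0 and library A of LD3. The version thus differed between time points under the same letter, and its effect was not tested. How reads that match several loci were treated, the filters and the genome build are not given in the sources used, so plastid loci that are duplicated in the plastid genome or copied into other genomes may share reads. Of the cells, 49.0% were empty and were read as 0, and the columns of a library were summed, so a fragment can count in both. The authors also deposited 3 comparison tables, from edgeR per the submitters' processing notes, with log2 fold changes and unadjusted p-values.

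From the counts, the share of reads on plastid loci was computed for each library with its exact (Clopper-Pearson) 95% interval, and groups were compared by exact two-sided permutation tests with scipy 1.17.1. PCR copies are not independent molecules, so intervals and limits for a count of 0 cover counting error only. The test over all genes was edgeR 4.0.16 (R 4.3.3), with TMM scaling, filterByExpr at a minimum count of 10, and terms for time point and library preparation over all 9 libraries (5 residual degrees of freedom, biological coefficient of variation 0.898). Calls needed an adjusted p under 0.05 over 9300 genes. DESeq2 1.42.0 was an alternative. The edgeR steps were tested on simulated data.

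The members and gene lists were chosen with earlier results of these data known. The rule for named loci took the 3 loci with the most reads in each class, the 5 smallest p in the joint test and every called locus. As the classes could not be formed and no description names the loci, the first part was narrowed to the 3 loci with the most reads in all. The 5 smallest p were cut to at most 2 in each direction of LD3 against LD1, which was not part of the rule. All 5 were lower in LD3, so ATCG00300, ATCG00020 and ATCG00800 fell out. Their unadjusted joint p was 0.0813, 0.0836 and 0.0897 by edgeR's quasi-likelihood test. No sequences or coordinates are printed, since no table pairs these identifiers with them.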

Additional observations from a re-analysis of the deposited data

How the results depend on the processing

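The plastid share was lower in LD3 than in LD1 and in LD0 under all 13 alternatives tried for each, and higher in LD1 than in LD0 under 12 of 13. With libraries A and B only, LD1 against LD0 gave -0.0351 percentage points. Leaving out each library in turn gave 0.00526 to 0.0999 for LD1 against LD0, -0.103 to -0.0268 for LD3 against LD0 and -0.158 to -0.0683 for LD3 against LD1. Mitochondrial shares, whose alternatives were chosen after seeing the data, kept their direction under all 13, with ranges of 0.0251 to 1.11, -0.555 to -0.403 and -1.57 to -0.480. No exact test could pass 0.05 in this design.

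The count of genes called by edgeR, 0 in each pair and 1 in the joint test, moved to 2 in the joint test with RLE factors and with a minimum count of 30, and to 1 for LD3 against LD0 with upper-quartile factors. With no filter, 23312 genes were tested, among them all 85 plastid loci. Of these genes, 107, 367 and 186 were called for LD1 against LD0, LD3 against LD0 and LD3 against LD1, and 433 in the joint test. Of the 85 plastid loci, 0, 0 and 1 were called for these pairs and 2 in the joint test. DESeq2 called 32, 298 and 9, and 35 in the joint test, with 1 plastid locus for LD3 against LD0. The joint test called 0 with libraries A and B only and with 1 read column per library. Leaving out each library gave 0 to 1 for LD3 against LD0, 0 to 2 in the joint test and 0 plastid loci throughout. The cause of these moves was not tested. Upper-quartile factors moved the median of all genes for LD3 against LD1 from 0.08 to 0.33, and that of the plastid loci from -2.12 to -1.75.

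The letters share a preparation but are not stated to mark shared plants or days. Correlations of deviations between libraries of the same letter ran from 0.0730 to 0.352, and 9 of 9 libraries correlated best with their own letter, a hint from the data only. The deviations were taken from the mean of each time point, with the preparation left in. For libraries C they therefore cannot tell shared plants or days from the shared preparation. A fit with the replicate block called 2 genes for LD3 against LD0 and 2 in the joint test, with 0 plastid loci, and the blocked share differences gave exact permutation p = 0.25 for LD3 against LD1.

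Log2 fold changes of named loci turned their sign as follows. For ATCG00740, LD1 against LD0 was -0.11 with no preparation term and -1.07 with A and B only, and ran from -0.85 (without LD1 C) to 1.103 when 1 library was left out. Its LD3 against LD0 ran from -0.93 to 0.42 (without LD0 A), and its LD3 against LD1 was 0.31 with A and B only and ran from -1.29 to 0.44 (without LD1 C). For ATCG00280, LD1 against LD0 was 0.63 with the replicate block and ran from -1.24 to 1.73 (without LD0 B). For ATCG00010, LD3 against LD0 was -0.67 with A and B only and ran from -0.39 (without LD0 C) to 0.93. For ATCG00670, LD3 against LD0 ran from -2.43 to 2.06 (without LD0 A) and LD1 against LD0 from -0.17 (without LD1 B) to 5.11. For ATCG00440, LD1 against LD0 ran from -0.10 (without LD1 C) to 3.18. The planned class shares and the split of plastid reads by class were not run, because the loci carry no description.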
